A study of Mus musculus with 24 samples.

Results

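The genes described here, 10 in all, mark macrophages and other leukocytes and were followed in kidneys of mice after myocardial infarction (MI). They are C1qa, C1qb, C1qc, Csf1r, Adgre1, Cd68, Lyz2, Fcer1g, Tyrobp and Ptprc, chosen by name from the 56941 genes of the kidney count table, and all 10 of 10 had enough counts to be tested. The kidneys came from wildtype young adult male C57BL/6J mice. In the MI groups the left anterior descending coronary artery had been ligated permanently, and kidneys were taken 5 days (5d post-MI) or 28 days (28d post-MI) after surgery. Sham mice had surgery without ligation. Their kidneys were all taken at 5 days and served as controls for both times, so that in the comparison of 28d post-MI with sham the infarct cannot be told apart from age and from time since surgery. Each kidney comes from another mouse according to the study's methods. RNA was extracted from whole snap-frozen tissue, so that fewer cells of a type and less RNA per cell cannot be told apart in any value given here.

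Macrophages live between the tubules of the kidney, where they clear debris and sense injury, and monocytes can enter from the blood. C1qa, C1qb and C1qc encode the A, B and C chains of complement C1q, which tissue macrophages make and which binds immune complexes and dying cells. Csf1r encodes the receptor for the growth factors CSF1 and IL-34, on which macrophages depend for survival, and Adgre1 encodes F4/80, the surface protein by which mouse macrophages are usually identified. Cd68 encodes a membrane glycoprotein of lysosomes and Lyz2 the lysozyme of myeloid cells. Fcer1g and Tyrobp (DAP12) encode small signalling adaptors of Fc receptors and of other activating receptors. Ptprc encodes CD45, the phosphatase present on all nucleated blood-derived cells.

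Counts of 3′ ends of mRNA were available for 8 sham kidneys, 8 kidneys at 5d post-MI and 6 kidneys at 28d post-MI. Total counts per kidney ranged from 2280618 to 3786275. Values are given as CPM, counts scaled to a common library size, after TMM normalization, which corrects for differences in composition between libraries, as the mean ± SD over kidneys. Differences are log2 fold changes from edgeR's quasi-likelihood test with 95% confidence intervals. Its p-values received Benjamini-Hochberg adjustment over all 12780 tested genes. A gene was called when its adjusted p was below 0.05. Of the tissue's defining transcripts, summed proximal tubule genes were at 8807 ± 744 CPM in sham kidneys. Slc34a1 (4313 CPM on average) and Slc27a2 (2492 CPM) were the highest of that list, while Slc5a2 had 0.312 CPM. Transcripts of adrenal steroid synthesis exceeded 50 CPM in sham replicates 2 and 6, at 976 and 727 CPM, and in 5d post-MI replicate 5, at 85.2 CPM, and were at 4.27 CPM or below in every other kidney.

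The C1q chains lie side by side. In GENCODE M21 on GRCm38 they occupy the minus strand of chromosome 4 in the order C1qb (chr4:136880129-136886187), C1qc (chr4:136889804-136893065) and C1qa (chr4:136895917-136898803), a stretch of 18675 bases with no other annotated gene in it. Lyz2 lies at chr10:117277331-117282321 on the minus strand, beside the closely related lysozyme gene Lyz1 at chr10:117287797-117292868. Reads could be shared between the pair. Lyz1 had at most 5 counts in any kidney, but that does not show whether reads of Lyz2 were lost or misassigned. Of the other genes, Cd68 lies at chr11:69664213-69666153 (minus strand), Fcer1g at chr1:171229572-171234365 (minus), Tyrobp at chr7:30413760-30417585 (plus) and Adgre1 at chr17:57358691-57483527 (plus). Ptprc at chr1:138062861-138175708 (minus) shares 5864 bases with A130071D04Rik, a transcript to be experimentally verified on the same strand, and its counts could therefore be affected.

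RefSeq promoter windows on GRCm38.p6, each from 250 bases before to 50 bases after the annotated start, were found for 6 of the 10 genes. The windows of C1qb, C1qc, Cd68 and Lyz2 are printed because these genes form the pairs that varied together most closely among kidneys, as described further on. Capitals mark the letters GAGGAA or, on the other strand, TTCCTC, which belong to the purine-rich sequences bound by PU.1, an ETS-family factor of myeloid cells. The windows are chr4:136886151-136886450 for C1qb, chr4:136892865-136893164 for C1qc, chr11:69666121-69666420 for Cd68 and chr10:117282223-117282522 for Lyz2, and all are read 5′ to 3′ on the minus strand.
C1qb: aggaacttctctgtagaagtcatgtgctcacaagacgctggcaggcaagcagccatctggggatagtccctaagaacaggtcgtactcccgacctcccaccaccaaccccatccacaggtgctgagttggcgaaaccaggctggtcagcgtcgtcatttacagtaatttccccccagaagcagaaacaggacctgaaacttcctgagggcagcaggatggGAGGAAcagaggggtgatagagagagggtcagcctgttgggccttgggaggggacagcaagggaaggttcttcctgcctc
C1qc: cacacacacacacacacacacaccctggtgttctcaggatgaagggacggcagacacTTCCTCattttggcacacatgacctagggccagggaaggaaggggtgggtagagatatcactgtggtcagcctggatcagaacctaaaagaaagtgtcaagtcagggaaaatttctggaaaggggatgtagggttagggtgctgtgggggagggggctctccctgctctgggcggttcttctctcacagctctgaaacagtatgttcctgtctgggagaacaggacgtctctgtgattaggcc
Cd68: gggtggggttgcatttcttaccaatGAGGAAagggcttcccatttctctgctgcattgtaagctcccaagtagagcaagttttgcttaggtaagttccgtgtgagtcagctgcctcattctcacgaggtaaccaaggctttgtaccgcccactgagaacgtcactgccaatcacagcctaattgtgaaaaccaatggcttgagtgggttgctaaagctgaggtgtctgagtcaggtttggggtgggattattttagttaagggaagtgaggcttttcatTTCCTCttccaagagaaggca
Lyz2: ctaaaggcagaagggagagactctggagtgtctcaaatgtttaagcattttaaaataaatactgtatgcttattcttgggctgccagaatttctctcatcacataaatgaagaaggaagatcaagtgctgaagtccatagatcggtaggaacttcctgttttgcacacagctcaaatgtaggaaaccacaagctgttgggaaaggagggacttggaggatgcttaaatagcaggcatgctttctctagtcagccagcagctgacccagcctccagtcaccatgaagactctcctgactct
The C1qb and C1qc windows held 1 match each, Cd68 held 2 and Lyz2 none. Over the 6 genes with a window, 4 had at least 1 match, the fourth being Ptprc in 1 of its 2 windows, and Fcer1g had none. Among all 32851 mouse promoter windows of this length, 28.3% held a match. A match describes the letters only, and the lack of one says only that these letters are not in this window.

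The first question was whether an acute infarct altered the macrophage transcripts of the kidney. At 5d post-MI, 0 of the 10 genes were called by edgeR, against a background of 9 of all 12780 genes (0.0704%). DESeq2 and limma voom also called 0 of the 10, beside 35 and 22 of all genes. All 10 estimates were below sham, from −0.45 (Ptprc) to −0.05 (C1qc), with a median of −0.30, while over all tested genes the median was 0.00018 and 49.9% of estimates were negative. At an unadjusted p below 0.05, 4 of the 10 were lower and 0 higher, namely C1qa, C1qb, Lyz2 and Ptprc, against 3.97% of all genes lower and 3.92% higher. The 10 genes together summed to 170 ± 18.0 CPM in sham kidneys, 146 ± 19.8 CPM at 5d post-MI and 169 ± 12.96 CPM at 28d post-MI.

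The second question was whether a later change was present. At 28d post-MI, 0 of the 10 genes were called against sham by any of the 3 tools. Of all genes, edgeR called 3 (0.0235%), DESeq2 42 and limma voom 11. The median of the 10 estimates was −0.05 (all genes, −0.0012), with 6 below and 4 above 0, while 50.4% of all estimates were negative. Ptprc alone was lower at an unadjusted p below 0.05 and 0 genes were higher, against 4.23% of all genes lower and 4.45% higher. Between the times, 28d against 5d post-MI, 0 of the 10 were called by any of the 3 tools. Here edgeR called 53 of all genes (0.415%) and DESeq2 called 96. The median of the 10 was 0.21 (all genes, −0.0046), and 8 estimates were above 0. C1qa and Csf1r were higher at 28d at an unadjusted p below 0.05 and 0 genes were lower, against 5.03% of all genes higher and 4.01% lower.

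**Figure D1:**
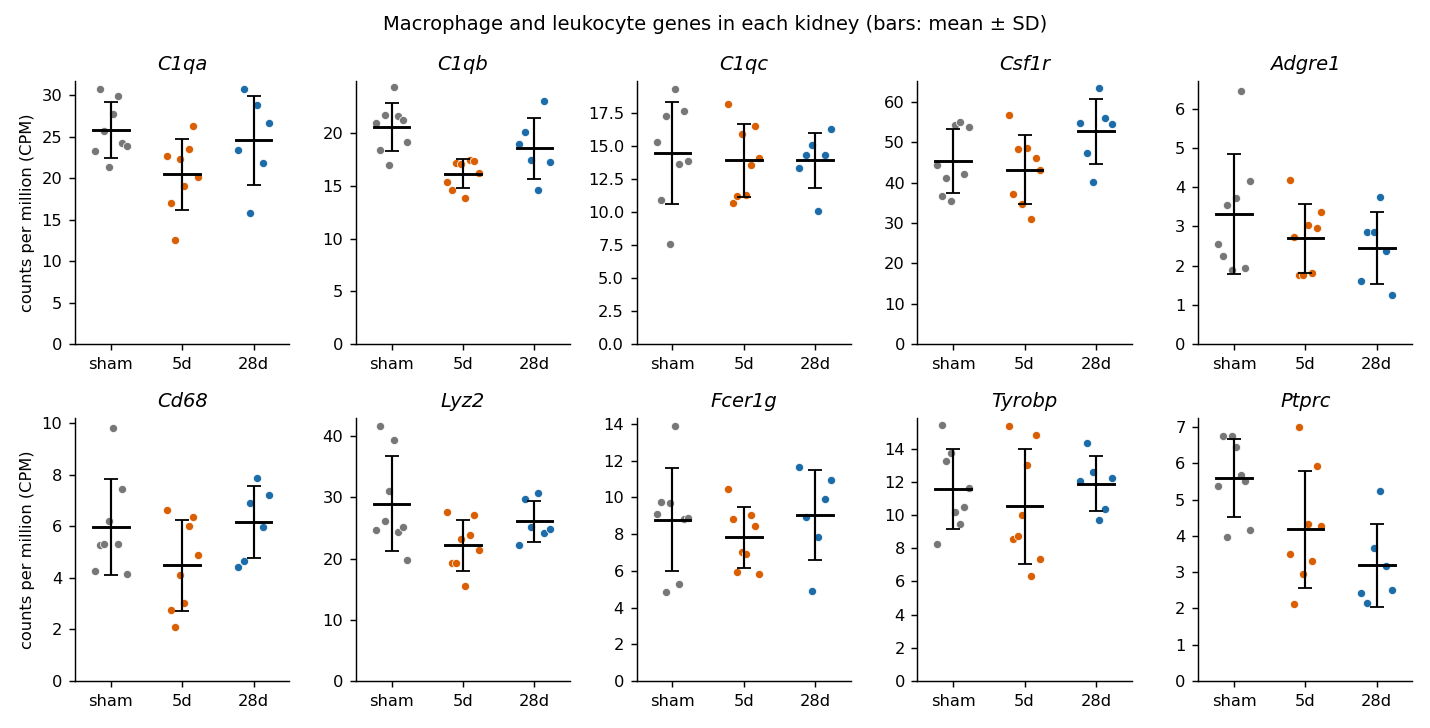
Level of each of the 10 genes in CPM (y axes start at 0) in each of 8 sham, 8 5d post-MI and 6 28d post-MI kidneys. Points are kidneys, the thick line is the mean and the bar the SD. At 5d post-MI the points of C1qb sit close together between 13.9 and 17.5 CPM, and 5 of 6 points of Ptprc at 28d lie below all sham points, while for every gene the groups overlap.

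Among the complement genes, C1qb varied least between kidneys in the sham and 5d groups. It ranged from 17.0 to 24.4 CPM in sham kidneys (median 21.1), from 13.9 to 17.5 CPM at 5d post-MI (median 16.6) and from 14.6 to 23.0 CPM at 28d post-MI (median 18.2). At 5d, 4 of 8 kidneys lay below every sham kidney, and the other 4 lay between the lowest sham value and the next. The mean of 16.1 ± 1.37 CPM at 5d against 20.5 ± 2.30 CPM in sham gave a log2 fold change of −0.34 (95% interval −0.54 to −0.14, unadjusted p = 0.00175), and the edgeR adjusted p was 0.307. At 28d the mean was 18.6 ± 2.87 CPM, with −0.14 against sham (−0.37 to 0.08, edgeR adjusted p = 0.772).

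C1qa ranged from 21.3 to 30.8 CPM in sham (median 24.96), from 12.6 to 26.2 CPM at 5d (median 21.2) and from 15.9 to 30.8 CPM at 28d (median 24.99). The low end at 5d was set by replicates 3 and 2, at 12.6 and 17.1 CPM, and the low value at 28d was replicate 3. The estimate was −0.33 at 5d against sham (95% interval −0.57 to −0.08, unadjusted p = 0.00987, edgeR adjusted p = 0.458). At 28d it was −0.05 against sham (−0.31 to 0.21) and 0.27 against 5d (0.0047 to 0.54, unadjusted p = 0.0463, edgeR adjusted p = 0.541).

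C1qc, whose gene lies between the other two, had means of 14.4 ± 3.85, 13.9 ± 2.76 and 13.9 ± 2.11 CPM in sham, 5d and 28d kidneys. Its sham kidneys spread from 7.55 to 19.3 CPM (median 14.6) and contained the whole range of both MI groups, 10.7 to 18.1 CPM (median 13.8) and 10.1 to 16.3 CPM (median 14.3). The estimates were −0.05 at 5d (95% interval −0.34 to 0.25) and −0.04 at 28d (−0.37 to 0.29), and the interval at 5d includes the values estimated for C1qa and C1qb. Whether the 3 chains differed from each other in their response was not tested.

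Of the surface receptors, Csf1r gave 93 to 194 counts per kidney, from a locus on the plus strand of chromosome 18 that shares 873 bases with Hmgxb3 on the opposite strand. It ranged from 35.6 to 55.0 CPM in sham (median 43.4), from 31.0 to 56.9 CPM at 5d (median 44.6) and from 40.3 to 63.6 CPM at 28d (median 54.6). Sham and 5d kidneys covered nearly the same range, whereas 2 of 6 kidneys at 28d lay above every sham kidney. The estimates were −0.08 at 5d against sham (95% interval −0.33 to 0.17, edgeR adjusted p = 0.923), 0.22 at 28d against sham (−0.04 to 0.48, adjusted p = 0.665) and 0.30 at 28d against 5d (0.03 to 0.56, unadjusted p = 0.0284, adjusted p = 0.478).

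Adgre1 was close to the limit of this depth, with 4 to 17 counts per kidney. It ranged from 1.89 to 6.45 CPM in sham (median 3.04), from 1.75 to 4.19 CPM at 5d (median 2.85) and from 1.25 to 3.74 CPM at 28d (median 2.62). Sham replicate 6 held the highest value, and 3 of 8 kidneys at 5d and 2 of 6 at 28d lay below every sham kidney. Intervals were correspondingly wide, with −0.27 at 5d (95% interval −0.83 to 0.29) and −0.41 at 28d (−1.04 to 0.22) against sham, and edgeR adjusted p of 0.876 and 0.778.

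Ptprc was the gene with the widest separation at 28d. It ranged from 3.98 to 6.76 CPM in sham (median 5.602), from 2.13 to 7.01 CPM at 5d (median 3.88) and from 2.15 to 5.23 CPM at 28d (median 2.84), on 6 to 25 counts per kidney. At 28d, 5 of 6 kidneys lay below every sham kidney and replicate 4 lay among them. At 5d, 4 of 8 kidneys lay below every sham kidney and replicate 3 above all of them. The log2 fold change was −0.81 at 28d (95% interval −1.32 to −0.30, unadjusted p = 0.00255, edgeR adjusted p = 0.29) and −0.45 at 5d (−0.89 to −0.01, unadjusted p = 0.0434, adjusted p = 0.622). Between the times the estimate was −0.36 at 28d against 5d (95% interval −0.90 to 0.18, edgeR adjusted p = 0.755).

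Both lysosomal genes had lower means at 5d. Lyz2 ranged from 19.7 to 41.7 CPM in sham (median 25.6), from 15.6 to 27.6 CPM at 5d (median 22.3) and from 22.1 to 30.7 CPM at 28d (median 24.99). Sham replicates 2, 5 and 4, at 41.7, 39.3 and 31.0 CPM, stood above all kidneys of the MI groups, and sham replicate 2 is one of the kidneys with adrenal transcripts. The estimate at 5d was −0.38 (95% interval −0.65 to −0.11, unadjusted p = 0.008, edgeR adjusted p = 0.444). It was −0.29 without sham replicate 2 and −0.32 without the 3 kidneys with adrenal transcripts, a choice made after seeing the data.

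Cd68 ranged from 4.16 to 9.82 CPM in sham (median 5.31), from 2.10 to 6.63 CPM at 5d (median 4.5) and from 4.43 to 7.85 CPM at 28d (median 6.44). At 5d, 4 of 8 kidneys lay below every sham kidney, and at 28d every kidney lay within the sham range. The estimates were −0.41 at 5d (95% interval −0.86 to 0.04, unadjusted p = 0.0706), 0.05 at 28d (−0.41 to 0.52) and 0.46 at 28d against 5d (−0.03 to 0.95, unadjusted p = 0.063), with edgeR adjusted p of 0.669, 0.981 and 0.593.

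The signalling adaptors gave no estimate with an unadjusted p below 0.05. Fcer1g had means of 8.79 ± 2.81, 7.82 ± 1.64 and 9.04 ± 2.46 CPM in sham, 5d and 28d kidneys. Tyrobp had means of 11.6 ± 2.42, 10.51 ± 3.45 and 11.9 ± 1.66 CPM. Every 28d kidney lay within the sham range for both genes, and the 5d ranges of 5.80 to 10.47 CPM (median 7.76) for Fcer1g and 6.32 to 15.4 CPM (median 9.37) for Tyrobp overlapped with sham. Against sham, Fcer1g gave −0.19 at 5d (95% interval −0.55 to 0.18) and 0.03 at 28d (−0.36 to 0.42), and Tyrobp gave −0.16 (−0.49 to 0.17) and 0.05 (−0.30 to 0.40). The lowest edgeR adjusted p among these was 0.868.

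**Figure D2:**
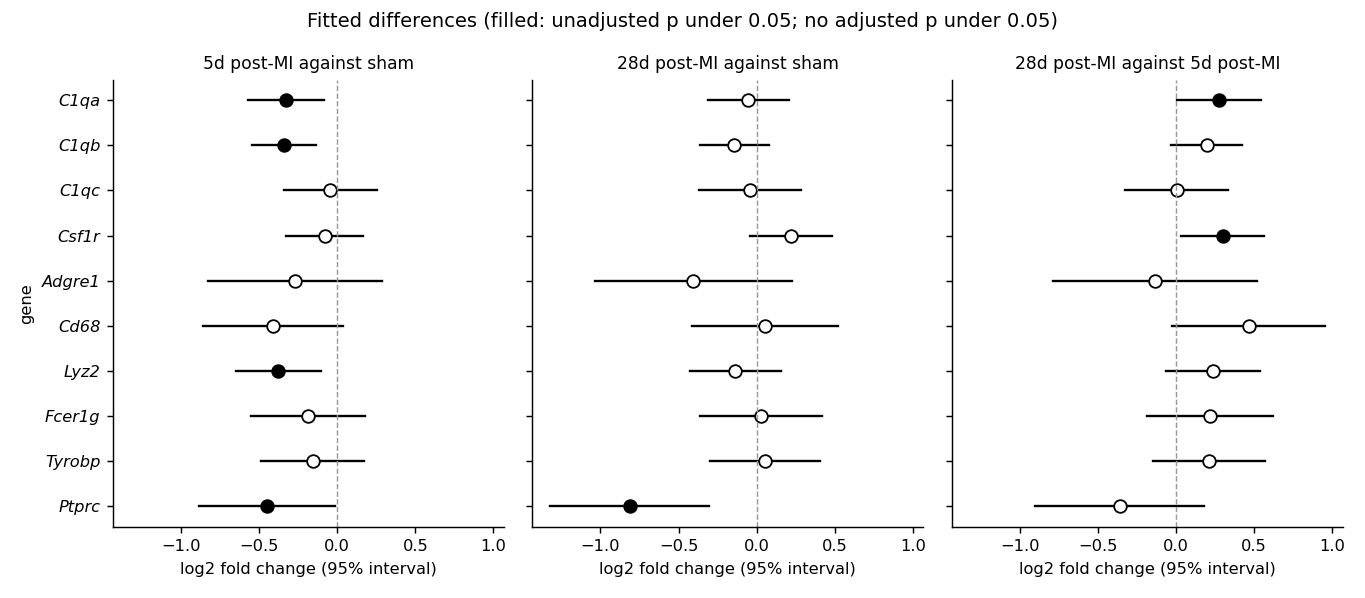
Log2 fold change (x axis) of each of the 10 genes with its 95% interval in the 3 comparisons. Filled points have an unadjusted p below 0.05, and no adjusted p is below 0.05. All 10 points lie left of 0 at 5d post-MI, with C1qb at −0.34 and Ptprc at −0.45. At 28d Ptprc is at −0.81 while Csf1r is at 0.22.

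In order of mean level, 5d post-MI was the lowest of the 3 groups for C1qa, C1qb, Csf1r, Cd68, Lyz2, Fcer1g and Tyrobp, and 28d post-MI for Ptprc, Adgre1 and, narrowly, C1qc. No neighbouring groups in these orders differed at an adjusted p below 0.05. The summed level of the 10 genes at 5d lay below the whole sham range in 6 of 8 kidneys, which ranged from 123.7 to 140.5 CPM, against 151 to 209 CPM (median 164) in sham. The other 2, replicates 1 and 8, were at 181 and 172 CPM. At 28d the sum was 145 to 182 CPM (median 172), with 1 of 6 kidneys below every sham kidney. Sham replicate 5 had the highest sum, 209 CPM, with the next sham kidney at 178 CPM.

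Counting error was set beside these ranges. The coefficient of variation expected from counting error was compared with the one observed within each group, giving 30 ratios for 10 genes in 3 groups. The observed value was at or below the counting value in 9 of them, and the ratio had a median of 1.3 and a range of 0.581 (C1qb at 5d) to 2.51 (Lyz2 in sham). For Ptprc at 28d, the observed variation was 35.9% and the counting value 34.3%. Csf1r, with the most counts, varied by 15.2 to 19.7% within groups where counting gave 8.44 to 8.94%.

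Pairs of the 10 genes were compared across kidneys. After subtracting group means, the 45 pairs had Pearson correlations from −0.33 to 0.63 across 22 kidneys, with a median of 0.10, on log2 CPM values that share library and depth. The closest pair was C1qb with C1qc (r = 0.63, Spearman rho = 0.52), then Cd68 with Lyz2 (r = 0.62, rho = 0.69) and Csf1r with Adgre1 (r = 0.55). C1qa varied with C1qb at r = 0.08 and with Lyz2 at r = 0.49. The most negative pair was Adgre1 with Fcer1g (r = −0.33). Given the share of counting error above, weak correlations are not read as a lack of shared variation.

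**Figure D3:**
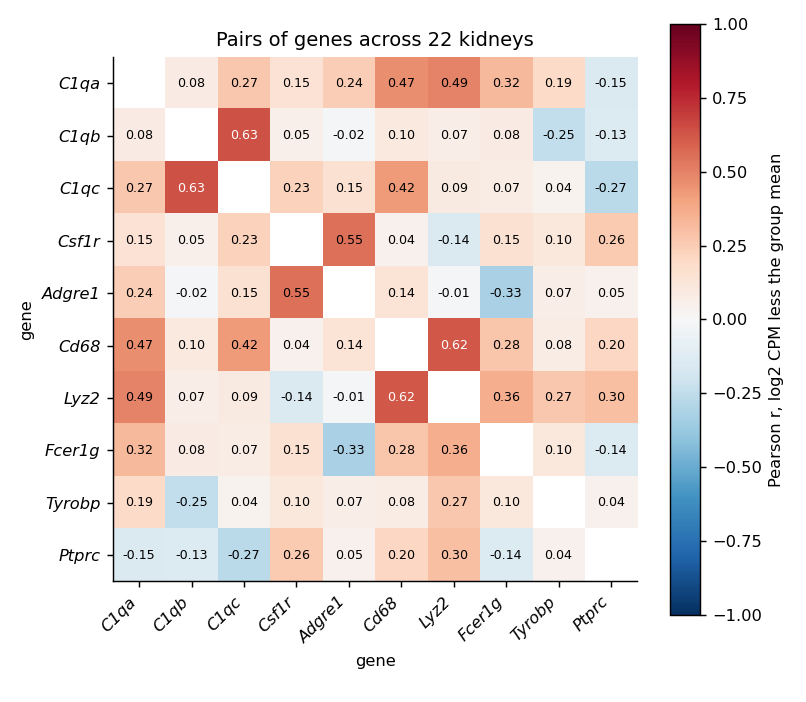
Pearson correlation of each pair of the 10 genes over 22 kidneys, computed on log2 CPM less the mean of the kidney's group (colour scale from −1 to 1, value printed in each cell, diagonal left blank). C1qb with C1qc (0.63), Cd68 with Lyz2 (0.62) and Csf1r with Adgre1 (0.55) are the darkest cells, and most others are near 0.

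The genes closest to the mean z-score of the 10 genes, within groups and over 22 kidneys, had r between 0.73 and 0.85. AW112010, a transcript known to respond to interferon, had r = 0.85 (rho = 0.57) and Gbp3, a guanylate-binding protein, r = 0.82 (rho = 0.79). B2m, the light chain of MHC class I, had r = 0.74 (rho = 0.68) and Gm43302, an annotated gene whose function is not given here, r = 0.73. The others were Krr1, Tcf19, Tlcd2 and Mrpl44, at r between 0.73 and 0.76. Without the 2 kidneys farthest from the median score, sham replicate 5 and 5d post-MI replicate 1, r was 0.81 for Gbp3, 0.75 for AW112010, 0.72 for Gm43302, 0.70 for Tlcd2, 0.65 for both Mrpl44 and B2m, 0.58 for Krr1 and 0.54 for Tcf19. Gbp3 had 8.20 ± 1.42 CPM in sham, 5.53 ± 2.42 CPM at 5d and 7.51 ± 1.85 CPM at 28d, and its estimate at 5d was −0.59 (unadjusted p = 0.00442, edgeR adjusted p = 0.425). These 8 genes were picked from 12780 by their likeness, so the correlations are a description.

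The score of the 10 genes was compared with sums of other macrophage, fibroblast, endothelial, proximal tubule, medulla, adipocyte, adrenal and haemoglobin genes. Podocyte genes and the other leukocyte lists were not compared with it. Among the sums compared, the fibroblast genes moved most closely with the score. Over 22 kidneys, after subtracting group means, r was 0.71 (rho = 0.71), and 0.71 without the same 2 kidneys. Summed fibroblast genes were 317 ± 43.0 CPM (268 to 374) in sham, 269 ± 47.0 CPM (202 to 334) at 5d and 265 ± 28.0 CPM (224 to 307) at 28d. Of the 9 fibroblast genes tested, 0 were called in any comparison by edgeR, with 3 lower at 5d and 1 lower at 28d at an unadjusted p below 0.05. None of these markers was at 0. The part of fibroblast content in the values of the 10 genes was not tested. With the sum of other macrophage genes the score correlated at r = 0.13 (rho = 0.16), and at 0.17 without the same 2 kidneys. It correlated with summed medulla genes at r = −0.45 (rho = −0.33), and at −0.35 without the same 2 kidneys. With log2 total counts r was −0.28 (rho = −0.205), and −0.34 without these kidneys. With summed endothelial genes r was −0.20 (rho = −0.16), and −0.15 without them.

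Haemoglobin transcripts, which mark red cells, were higher at 5d. Their sum was 3527 ± 614 CPM (2200 to 4123) in sham, 9860 ± 4524 CPM (4967 to 19090) at 5d and 2860 ± 1203 CPM (1795 to 5122) at 28d. All 4 haemoglobin genes were called higher at 5d than in sham and lower at 28d than at 5d, with log2 fold changes of 1.44 to 1.53 and −1.88 to −1.75. The edgeR adjusted p at 5d was 0.0356 to 0.0423, and across 30 other fits the estimates stayed between 1.25 and 1.66 while Hba-a1 was called in 14 of them and Hbb-bt in 7. Within groups the score of the 10 genes correlated with the haemoglobin sum at r = −0.18 (rho = 0.03), and at 0.05 without the same 2 kidneys, so that no direction is read from it. The part of blood content in the values of the 10 genes was not tested.

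Most adipocyte genes had negative estimates in both MI groups, and 0 of 10 tested were called by edgeR. At 5d 9 of 10 estimates were negative (median −0.53) with 2 at an unadjusted p below 0.05, and at 28d 9 of 10 were negative (median −1.04) with 7 at an unadjusted p below 0.05, all of them lower. Their sum of 2602 ± 562, 2506 ± 759 and 1938 ± 547 CPM in sham, 5d and 28d is dominated by Pck1, which the proximal tubule also expresses, at 1239, 1547 and 1306 CPM. Without Pck1, singled out after its values were seen, the other 10 adipocyte genes summed to 1363 ± 602, 959 ± 533 and 631 ± 231 CPM. The score of the 10 macrophage and leukocyte genes correlated with the full sum at r = 0.10 and with the sum without Pck1 at r = 0.40 (rho = 0.29), and at 0.28 without the same 2 kidneys. The part of fat content in the values of these genes was not tested.

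**Figure D4:**
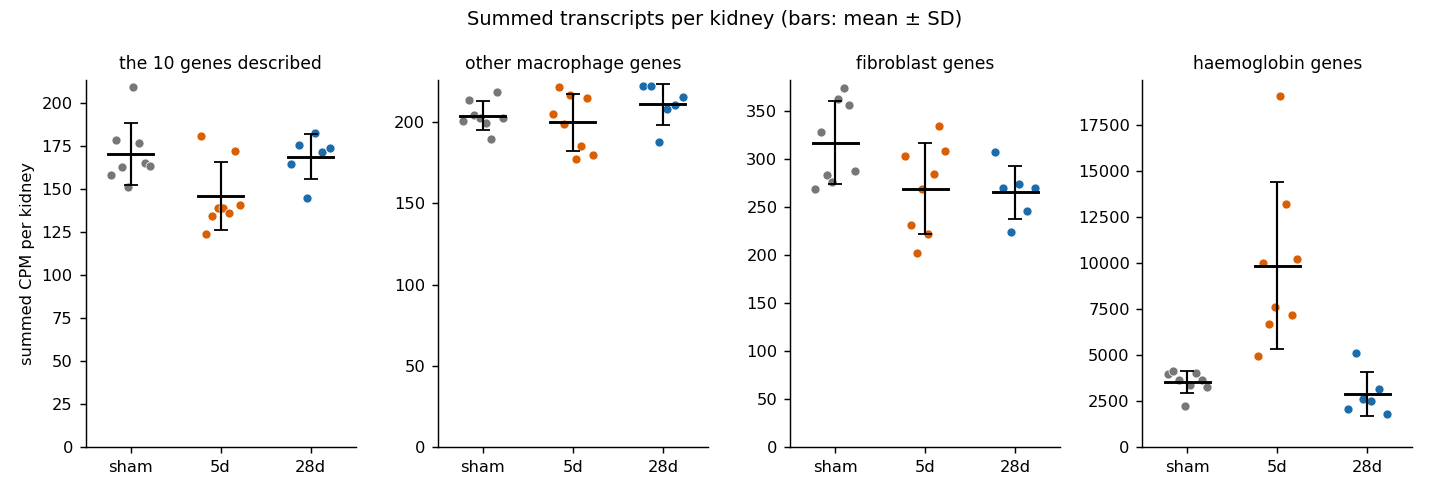
Summed CPM per kidney (y axes start at 0) of the 10 genes, of other macrophage genes, of fibroblast genes and of haemoglobin genes, in sham, 5d and 28d post-MI kidneys. Points are kidneys, lines the mean and bars the SD. At 5d, 6 of 8 kidneys lie below every sham kidney for the 10 genes, all 8 lie above every sham kidney for haemoglobin, and other macrophage genes have means of 204, 200 and 211 CPM.

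Other genes of the same cells and pathways were not called. Of 32 other macrophage genes, 15 could be tested and 0 were called by edgeR in any comparison, with median estimates of −0.06 at 5d, 0.05 at 28d and 0.22 between the times. At an unadjusted p below 0.05, 2 were lower at 5d, 1 was higher at 28d and 0 differed between the times. The best measured were Sirpa, an inhibitory receptor (43.9 ± 6.82, 44.8 ± 7.71 and 42.3 ± 6.49 CPM in sham, 5d and 28d), Mertk, a receptor for dying cells (30.5 ± 4.66, 32.5 ± 5.78 and 30.9 ± 3.06 CPM), and Fcgr2b, an inhibitory Fc receptor (28.8 ± 3.34, 28.6 ± 4.70 and 28.1 ± 6.56 CPM). All 3 are also expressed outside macrophages. Ctss, a lysosomal protease of antigen-presenting cells, had the lowest p at 5d (−0.33, 95% interval −0.62 to −0.04, edgeR adjusted p = 0.564). Cd14, a receptor for bacterial lipopolysaccharide, had the lowest at 28d against sham (0.44, 0.03 to 0.86, adjusted p = 0.537), and Cybb, the NADPH oxidase subunit, at 28d against 5d (0.38, −0.02 to 0.78, adjusted p = 0.587).

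Ligands and partners of CSF1R and of the adaptors were tested for 7 of 18 genes, and 0 were called by edgeR, also at an unadjusted p below 0.05. Il34, which encodes the CSF1R ligand that kidney tubules can make, had 28.2 ± 6.02, 28.3 ± 7.07 and 34.5 ± 6.85 CPM in sham, 5d and 28d. Its estimate at 28d was 0.27 against sham (95% interval −0.07 to 0.60, edgeR adjusted p = 0.687), beside 0.22 for its receptor gene Csf1r. Ptpn6, the phosphatase SHP-1, had 20.3 ± 2.37, 22.9 ± 3.63 and 20.8 ± 3.55 CPM. Lyn, a kinase that phosphorylates such adaptors, had 15.9 ± 2.87, 14.2 ± 2.69 and 16.0 ± 3.04 CPM. Csf2ra, a chain of the GM-CSF receptor, was the nearest to a difference between the times (0.37, −0.0035 to 0.74, adjusted p = 0.558).

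Of 20 activation genes, 4 could be tested and 0 were called by edgeR. At an unadjusted p below 0.05, 1 was lower at 5d, 1 lower at 28d, and 1 higher and 1 lower between the times. Spp1, osteopontin, which renal tubules also make in quantity, had 593 ± 62.9, 644 ± 64.2 and 531 ± 49.8 CPM in sham, 5d and 28d. It was nearest to a call at 28d against 5d, with −0.28 (95% interval −0.42 to −0.13, unadjusted p = 0.000463, edgeR adjusted p = 0.0713). Spp1 was called in 5 of 30 other fits of that comparison. Retnla, a marker of alternative activation that adipose tissue also expresses, had 9.36 ± 3.15, 5.08 ± 2.82 and 9.48 ± 1.91 CPM, with −0.86 at 5d (−1.44 to −0.29, unadjusted p = 0.0046, edgeR adjusted p = 0.425). Other fits called Retnla in 1 of 30 at 5d against sham and in 2 of 30 between the times. Lgals3 (53.9 ± 3.81, 49.6 ± 6.87 and 52.1 ± 2.70 CPM) and the chemokine gene Cxcl16 (45.4 ± 4.29, 45.7 ± 6.02 and 44.0 ± 6.62 CPM) had no unadjusted p below 0.05.

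The monocyte list gave 1 called gene among 7 tested of 10. At an unadjusted p below 0.05, 1 was lower at 5d, 2 were higher at 28d against sham, and 2 were higher and 1 lower between the times. One of those at 28d was Ccr2, the chemokine receptor of blood monocytes and named here after its values were seen, with 2.49 ± 1.09, 3.30 ± 1.298 and 4.11 ± 1.64 CPM in sham, 5d and 28d (0.72 at 28d against sham, 95% interval 0.06 to 1.38, unadjusted p = 0.0341, edgeR adjusted p = 0.537). Nr4a1, which non-classical monocytes need but which is also an immediate early gene of most cells, had 121 ± 51.9, 39.1 ± 20.6 and 157 ± 50.5 CPM in sham, 5d and 28d. It was higher at 28d than at 5d by 1.998 on the log2 scale (95% interval 1.24 to 2.76, edgeR adjusted p = 0.0104, and 0.0565 in a fit of these 2 groups alone), and at 5d its estimate against sham was −1.62 (−2.34 to −0.90, adjusted p = 0.112). Ace, on the list for non-classical monocytes but a known brush-border gene of the proximal tubule, had 147 ± 15.1, 148 ± 19.0 and 175 ± 8.90 CPM (0.25 at 28d against sham, edgeR adjusted p = 0.262). Other fits called Ace in 1 of 30 at 28d against sham and in 2 of 30 between the times. Plac8, expressed in monocytes and other cells, had 22.3 ± 2.61, 24.96 ± 2.48 and 20.02 ± 5.53 CPM, and was lower at 28d than at 5d at an unadjusted p of 0.0129 (edgeR adjusted p = 0.368).

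Lymphocytes, neutrophils and dendritic cells were measured too thinly for most tests. Of 14 neutrophil genes 12 had a count and 0 could be tested. The highest were S100a8 (2.004 ± 0.911, 2.97 ± 1.49 and 2.19 ± 1.40 CPM in sham, 5d and 28d), S100a9 (2.88 ± 1.64, 2.54 ± 2.03 and 1.54 ± 0.852 CPM) and Mmp9, at 0.849 CPM or below on average. Of 22 T and NK cell genes only Ccl5, a chemokine, was tested (3.38 ± 2.03, 4.16 ± 2.11 and 5.35 ± 2.12 CPM, 0.66 at 28d against sham, 95% interval −0.01 to 1.33, edgeR adjusted p = 0.585), with Thy1 and Cd8a at most 2.19 CPM on average. Of 12 dendritic cell genes Irf8 (14.9 ± 2.41, 12.6 ± 2.998 and 14.0 ± 2.13 CPM) and Zbtb46 (9.55 ± 1.67, 10.52 ± 1.79 and 11.02 ± 1.32 CPM) were tested and not called, and Itgae had 2.01 to 2.66 CPM on average. Of 8 mast cell and basophil genes only Kit was tested (9.61 ± 1.95, 10.4 ± 2.55 and 10.7 ± 1.74 CPM, lowest edgeR adjusted p 0.876), and Ms4a2 and Mcpt4 were at most 0.286 CPM on average.

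Of 10 B cell genes only Ly6d was tested, a gene that epithelia also express. It had 15.7 ± 14.4 CPM (3.33 to 38.3) in sham, 4.82 ± 4.88 CPM at 5d and 3.64 ± 0.891 CPM at 28d. The estimates were −1.60 (95% interval −2.78 to −0.42, edgeR adjusted p = 0.467) and −2.04 (−3.46 to −0.62, adjusted p = 0.369), and 5 of 8 kidneys at 5d and 1 of 6 at 28d lay below every sham kidney. Sham replicates 2 and 6, the sham kidneys with adrenal transcripts, had the highest sums of the B cell list, at 43.2 and 40.6 CPM. Ly6d made up most of that sum, with a mean of 15.7 of 19.6 CPM in sham. A high sum is therefore not read as more B cells. Without the 3 kidneys with adrenal transcripts the estimates of Ly6d were −0.61 and −1.16. Cd79b, a chain of the B cell receptor, had 1.14 ± 0.800, 1.32 ± 0.665 and 1.65 ± 0.459 CPM, and Cd22 was at most 0.763 CPM on average. Ptprc, which B cells share with all other leukocytes, was the lowest at 28d while Cd79b had its highest mean there.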

How the data were processed

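Kidney RNA was sequenced by MACE, which reads mRNA 3′ ends and carries unique molecular identifiers. Per the study's methods and processing notes, reads were trimmed with Cutadapt, mapped (mm10 in the methods, mm39 and Bowtie2 in the notes) and counted with HTSeq. Annotation and strand setting are not given in the sources used here. The deposited values used are the authors' counts per gene, whole numbers without normalization, beside values named tpm that were not used. Of 48 value columns, 26 were not used: 24 of tpm and 2 of counts that share a name, which left 1 kidney of each MI group out of the analysis. The 22 kidneys used had between 2280618 and 3786275 counts. A gene with 0 counts could have up to 3, a limit that covers counting error only.

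Gene symbols came from GENCODE M21, which held 51948 of 56941 identifiers. R 4.3.3 with edgeR 4.0.16 was used with filterByExpr (minimum 10 counts), which left 12780 of 30116 genes with a count, then TMM, a robust quasi-likelihood fit of the 3 groups without covariates, and two-sided F tests with Benjamini-Hochberg adjustment. Log2 CPM for correlations used a prior count of 2. The fit was tested on simulated data. The 71 within-group pairs of kidneys differed by more than sampling noise (chi-squared per degree of freedom 1.69 to 7.21). Alternatives were DESeq2 1.42.0, limma 3.58.1 voom, DESeq2-type (RLE) size factors, total counts, no filter, the compared groups alone, the replicate number as a block, and each kidney left out. A fit without the kidneys holding over 50 CPM of adrenal transcripts was added after seeing the data.

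The 10 genes, the other lists and the tests were chosen with earlier results of these data known. Named beside the 10 genes were called list genes, the 3 highest genes and the lowest p per comparison of each leukocyte list, and the 8 genes most like the mean score. Promoter windows were searched with Python 3.11.15, and figures drawn with matplotlib.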

Additional observations from a re-analysis of the deposited data

Results flagged for a closer look

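Over 84 sets of kidneys, the 10 genes and the summed lists in 3 groups, 5 values stood apart from the other kidneys of their group by Dixon's criterion, which chance meets in about 1 of 20 sets. The summed level of the 10 genes was 209 CPM in sham replicate 5, with the next sham kidney at 178 CPM. The haemoglobin sum was 2200 CPM in sham replicate 4, below the next at 3275 CPM. The monocyte sum was 151.5 CPM in 5d post-MI replicate 2, below the next at 222 CPM. At 5d that sum came mostly from Ace (148 CPM on average) and Nr4a1 (39.1 CPM), which other cells also express. A low sum is therefore not read as fewer monocytes. The sum of adrenal steroid genes was 85.2 CPM in 5d post-MI replicate 5, above the next at 4.27 CPM. The sum of T and NK cell genes was 31.1 CPM in 28d post-MI replicate 2, above the next at 19.5 CPM.

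Among the list genes, 5 differed between the times, each called by edgeR for 28d against 5d post-MI. Nr4a1 was higher at 28d by a log2 fold change of 1.998. The log2 fold change was −1.78 for Hba-a1 and −1.80 for Hba-a2. It was −1.75 for Hbb-bs and −1.88 for Hbb-bt.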

How the results depend on the processing

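None of the 10 genes was called in any of the 30 alternatives per comparison, where the lowest adjusted p was 0.0705 (Lyz2 at 5d). The median of their estimates was −0.36 to −0.23 at 5d, −0.11 to 0.03 at 28d and 0.18 to 0.29 between the times with each kidney left out, and −0.33 to −0.27, −0.09 to 0.02 and 0.19 to 0.23 in the other alternatives. Estimates near 0 changed sign. At 28d against sham, C1qc was 0.0084 with limma voom and 0.0598 with the replicate block, Fcer1g −0.0097 without TMM, and without the kidneys holding adrenal transcripts C1qa was 0.0277 and Fcer1g −0.0346. At 28d against 5d, C1qc was −0.0256 without TMM and −0.0053 without a filter. With each kidney left out, C1qc ranged from −0.15 to 0.0256 at 5d. At 28d against sham the ranges were −0.13 to 0.0402 (C1qa), −0.15 to 0.0354 (C1qc), −0.0256 to 0.19 (Cd68), −0.0497 to 0.15 (Fcer1g) and −0.0111 to 0.12 (Tyrobp), and at 28d against 5d −0.0585 to 0.0805 (C1qc) and −0.30 to 0.0139 (Adgre1). Adgre1 fell under the count filter in 7 alternatives and Ptprc did so in the fit of the MI groups alone.

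The number of all genes called was less steady. At 5d it was 35 with DESeq2, 22 with voom, 5 without TMM, 80 without a filter, 2 with the replicate block, 2 with only the groups compared, 2 without the kidneys holding adrenal transcripts and 1 to 38 with each kidney left out. At 28d against sham it was 42, 11, 1, 94, 24, 31, 1 and 0 to 29 in the same order. At 28d against 5d it was 96 with DESeq2, 160 without a filter, 80 with the block, 26 with only the groups compared and 41 to 84 with each kidney left out. The cause was not tested. The replicate numbers are not stated to pair animals. Deviations of same-numbered kidneys correlated between −0.13 and 0.09, which alone does not decide whether kidneys were paired. Depth limits Adgre1, Ptprc and Cd68 most, with at most 17, 25 and 29 counts per kidney.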
